A study of Mus musculus with 26 samples.

Results

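The genes described here are 8 genes of adrenergic signalling in the left ventricle of the mouse: the alpha-1 receptors Adra1a and Adra1b, the beta-1 receptor Adrb1, the adenylyl cyclases Adcy5 and Adcy6, the G protein alpha subunits Gnas and Gnai2, and Maoa, an enzyme that breaks down noradrenaline. They were picked by gene symbol, and all 8 were found among the 40413 genes of the count table. All 8 were also among the 15543 genes that passed the filter on low counts. Noradrenaline from sympathetic nerves and adrenaline from the adrenal gland act on these receptors. The beta-1 receptor couples to the stimulatory subunit encoded by Gnas, which switches on the cardiac adenylyl cyclases, and the cyclic AMP they make drives protein kinase A and raises the rate and force of the heartbeat. The inhibitory subunit encoded by Gnai2 opposes this step, while alpha-1 receptors act mainly through Gq proteins, phospholipase C and calcium release.

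Polyadenylated RNA was sequenced from left ventricles of BPH/2J mice, an inbred hypertensive strain in which raised sympathetic activity is known to contribute to the high blood pressure, and of BPN/3J mice, the normotensive strain bred alongside it. Mice of both strains received Cmpd17b, a small-molecule agonist of formyl peptide receptors, at 50 mg/kg per day by intraperitoneal injection for 28 days, or vehicle on the same schedule. The groups are named by strain and treatment, and the libraries used were 6 of BPH_Cmpd17b, 5 of BPN_Cmpd17b, 7 of BPH_vehicle and 7 of BPN_vehicle. Each library carries an animal number of its own in the labels, so the spread between libraries includes the spread between mice. The labels name no transgene or deletion, and as the strains differ at many loci, a strain difference cannot be assigned to a single one. A further library labelled BPH_Cmpd17b replicate 7 was left out, because Myh6, the ventricular myosin heavy chain, stood at 12.4 CPM (counts scaled to the total of the library) in it, against 13400 to 23500 CPM in the other 25, while the kidney gene Kap reached 18900 CPM.

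The 25 libraries held 25476128 to 48648200 counts each. The 7 ventricular cardiomyocyte markers summed to between 39800 and 62300 CPM in every one of them. BPN_vehicle replicate 7 stood apart: its median rank correlation with the rest was 0.948, against 0.968 to 0.98, and all 5 endothelial markers were higher in it than in any other library, summing to 1180 CPM against 391 to 583 CPM in the other 24. The summed endothelial level ran from 438 to 558 CPM in BPH_Cmpd17b, 503 to 583 CPM in BPN_Cmpd17b, 391 to 576 CPM in BPH_vehicle and 445 to 1180 CPM in BPN_vehicle, and none of the 5 markers was at 0 in any library. In BPN_vehicle replicate 7 the smooth muscle and pericyte markers summed to 1070 CPM against 566 to 862 CPM elsewhere. The ventricular markers were mixed there. Ryr2, the cardiac ryanodine receptor, stood at 293 CPM against 525 to 826 CPM. Myl2 was the highest of all, at 10900 CPM against 4260 to 10400 CPM, and Myh6 was within the range, at 16600 CPM against 13300 to 23200 CPM. Results that rest on this library are given with and without it, and what its marker levels contribute to them was not tested otherwise. BPH_Cmpd17b replicate 6, the only batch 2 library of its group, also stood apart, with the lowest summed ventricular level of all 25. It had the highest fibroblast sum (1260 CPM, against at most 936 CPM elsewhere) and the highest atrial sum (2550 CPM, against at most 1100 CPM). The atrial light chain Myl7, a marker in that sum, stood at only 0.0873 CPM in this library. The 4 hepatocyte markers summed to 323, 511 and 59.6 CPM in BPN_vehicle replicates 1, 2 and 4 and to 9.35 CPM or less in the other 22 libraries, at most 3.96 CPM outside BPN_vehicle. Replicates 1 and 2 are the only batch 2 libraries of BPN_vehicle, so each batch 2 value rests on them. Skeletal muscle markers summed to 2280 to 2640 CPM in BPH_vehicle and 2610 to 3860 CPM in BPN_vehicle, and Schwann cell markers had a median sum of 6.44 CPM in BPH_vehicle and 3.82 CPM in BPN_vehicle. The part of these marker differences in the strain comparison was not tested, apart from a fit, chosen after seeing the data, without BPN_vehicle replicates 1, 2 and 4. BPH_vehicle replicate 7 held 68.8 CPM of the atrial light chain Myl7, against at most 1.51 CPM in every other library. Tyrosine hydroxylase (Th), an enzyme of catecholamine synthesis, had no counts in any of the 25 libraries. Dbh, another gene of that synthesis, had counts in all 25, at 0.349 to 1.66 CPM. In bulk tissue, fewer cells of a type and less RNA per cell cannot be told apart.

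Divided by the length of each gene's annotated exons, the G protein subunits were the most abundant of the 8 and Maoa the least. In BPH_vehicle, Gnas averaged 46.8 ± 3.44 and Gnai2 46.0 ± 3.25 CPM per kb (SD, n = 7), which do not differ beyond their spread. Adcy6 followed with 27.0 ± 3.21 and Adcy5 with 11.9 ± 1.33 CPM per kb. Below them stood Adra1b at 8.04 ± 1.01, Adra1a at 6.26 ± 0.659, Adrb1 at 5.56 ± 0.949 and Maoa at 1.49 ± 0.226 CPM per kb, where the intervals of 1 SD around Adra1a and Adrb1 overlap. In BPN_vehicle the order of the last 4 was Adra1b at 5.47 ± 2.01, Adrb1 at 5.26 ± 1.82, Adra1a at 4.23 ± 1.07 and Maoa at 1.07 ± 0.208 CPM per kb, and the intervals of 1 SD around the 3 receptors overlap. Of the receptors outside the 8, Adrb3 stood at 0.0166 ± 0.0271 CPM per kb in BPH_vehicle and 0.0142 ± 0.0143 in BPN_vehicle, and at most 0.255 CPM in any library. The length used for Gnas, 11186 bases, counts the exons of several alternative starts, so its level per kb is a low estimate.

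**Figure D1:**
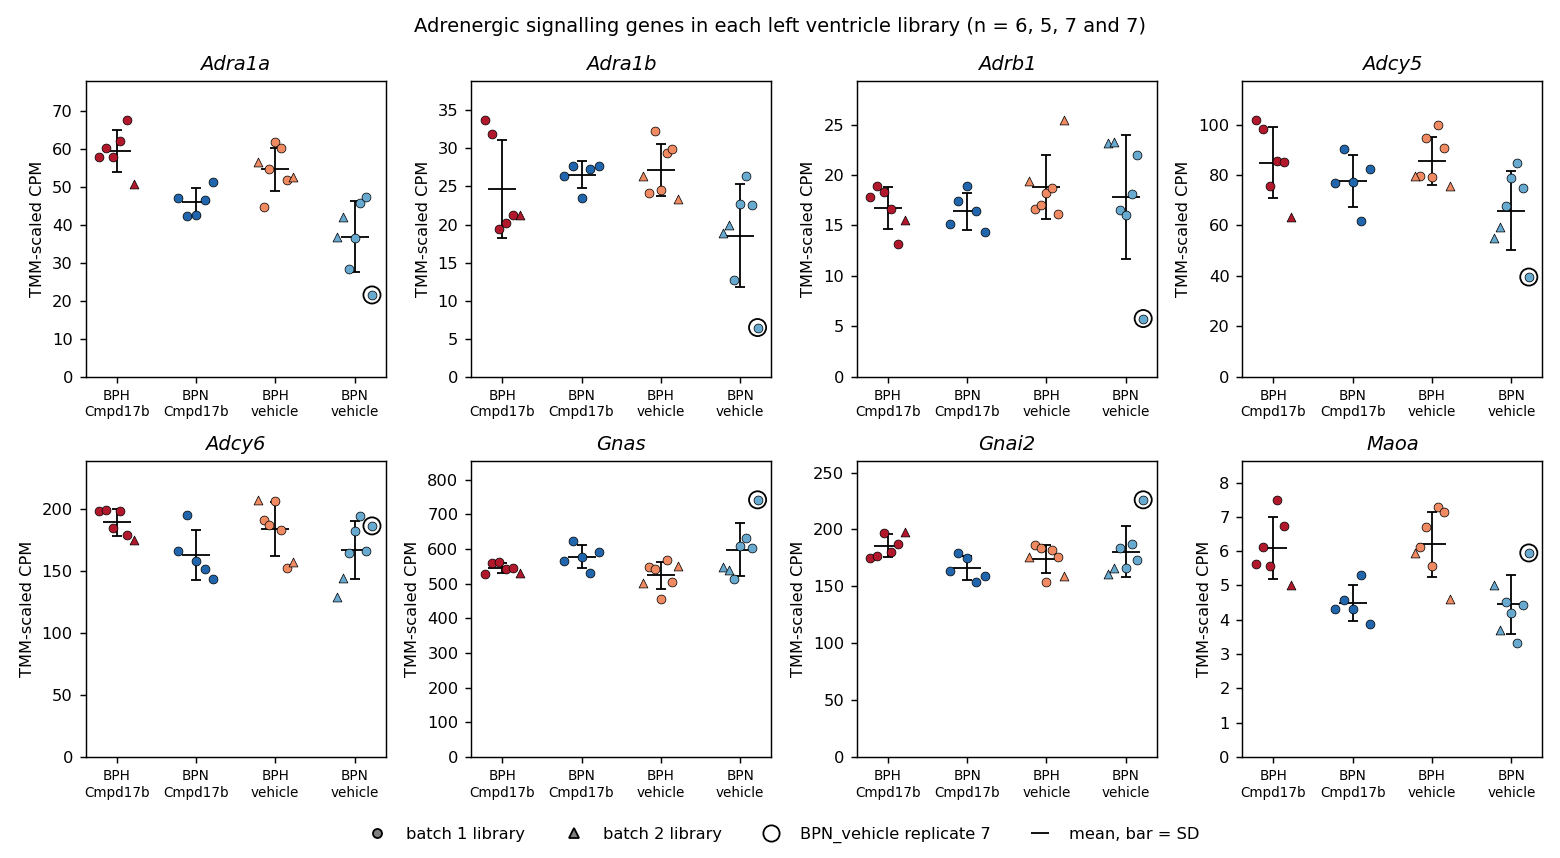
CPM of the 8 genes in each of 25 left ventricle libraries, by strain and treatment, with circles for batch 1, triangles for batch 2, and lines and bars for the mean and SD. Adra1a lay between 44.6 and 61.7 CPM in BPH_vehicle and between 21.5 and 47.4 CPM in BPN_vehicle, and the circled library, BPN_vehicle replicate 7, was the lowest of all for Adra1a, Adra1b, Adrb1 and Adcy5.

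The strains were first compared among mice on vehicle. Adra1a, Adcy5 and Maoa were higher in BPH_vehicle than in BPN_vehicle, by 1.31 to 1.48 times, and the other 5 genes did not pass the test. That is 3 of 8 genes called at an adjusted p under 0.05 in edgeR's quasi-likelihood test, all higher, where 18.9% of all 15543 genes tested were called 9.16% higher and 9.73% lower. Without BPN_vehicle replicate 7, 4 of the 8 were called, where 24.2% of all genes were. The median log2 difference of the 8 genes was 0.27, against -0.000756 over all genes tested. None of the 8 had groups with no overlap, where 6.36% of all genes tested did. Without BPN_vehicle replicates 1, 2 and 4, the libraries with hepatocyte markers, Adra1a (0.64, adjusted p = 0.0056), Adcy5 (0.44, adjusted p = 0.0491) and Maoa (0.53, adjusted p = 0.0126) were called, where 15.1% of all genes were. With the left-out library back in the fit, 1 of the 8 remained called, Maoa, where 9.59% of all genes were.

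Adra1a encodes the alpha-1A receptor, a main alpha-1 subtype of heart muscle. It ran from 44.6 through a median of 54.6 to 61.7 CPM in BPH_vehicle, against 21.5 through a median of 36.7 to 47.4 CPM in BPN_vehicle. The groups overlapped slightly: 6 of 7 BPH_vehicle libraries lay above every BPN_vehicle library, and BPH_vehicle replicate 2 was the exception. The fitted log2 difference was 0.56 ± 0.12 (SE), a ratio of 1.48, with an adjusted p of 0.000995 in edgeR's test. Without BPN_vehicle replicate 7 it was 0.47 ± 0.09 (adjusted p = 0.000315). Within batch 1 it was 0.60 (adjusted p = 0.00633) and within batch 2, with 2 libraries a group, 0.47 (adjusted p = 0.0605). It held in each of 25 fits that left out 1 library, with log2 differences from 0.47 to 0.64, and it was lost when the left-out library was included (adjusted p = 0.0537).

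Adra1b encodes the alpha-1B receptor, the other main alpha-1 subtype of heart muscle. Its levels were 23.4, 26.4 and 32.3 CPM (lowest, median and highest) in BPH_vehicle and 6.45, 20.0 and 26.4 CPM in BPN_vehicle. Of the 7 BPN_vehicle libraries, 6 lay below every BPH_vehicle library. The log2 difference of 0.55 ± 0.20 was close to that of Adra1a but missed the threshold (adjusted p = 0.0545). It passed in 5 of the 25 fits that left out 1 library: without BPN_vehicle replicate 7 (0.40, adjusted p = 0.0474), replicate 4 (0.0478), replicate 5 (0.0237) or replicate 6 (0.0494), or without BPH_Cmpd17b replicate 1 (0.0483). It also passed in DESeq2 (adjusted p = 0.0272), in limma voom (0.0398) and with a stricter filter in edgeR (0.0471). BPN_vehicle replicates 7 and 3 were the lowest libraries for both alpha-1 receptors.

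Adrb1 encodes the beta-1 receptor, through which noradrenaline speeds and strengthens the heartbeat. It had 16.1, 18.2 and 25.5 CPM (lowest, median and highest) in BPH_vehicle and 5.76, 18.1 and 23.3 CPM in BPN_vehicle. The medians were nearly equal and the groups overlapped over most of their range. The log2 difference was 0.08 ± 0.17, with a 95% interval from -0.26 to 0.43 (adjusted p = 0.788). It turned to -0.07 ± 0.09, with an interval from -0.26 to 0.13, without BPN_vehicle replicate 7. A strain difference in Adrb1 of the size seen for Adra1a lay outside both intervals.

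Adcy5 and Adcy6 encode the main adenylyl cyclases of heart muscle. Adcy5 had 75.6, 79.6 and 100 CPM (lowest, median and highest) in BPH_vehicle and 39.5, 67.8 and 84.9 CPM in BPN_vehicle. The groups overlapped: 3 of 7 BPH_vehicle libraries lay above every BPN_vehicle library and 5 of 7 BPN_vehicle libraries lay below every BPH_vehicle library. The log2 difference was 0.38 ± 0.12, a ratio of 1.31, with an adjusted p of 0.0202. It was 0.28 ± 0.08 (adjusted p = 0.0111) without BPN_vehicle replicate 7, and the call held in each of 25 fits that left out 1 library. Within batch 1 the difference was 0.36 (adjusted p = 0.104), within batch 2 it was 0.45 (adjusted p = 0.0534), and in a fit of the vehicle libraries alone the adjusted p was 0.0564. With the left-out library included it was 0.642.

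Adcy6, by contrast with its paralog, did not pass the test. It had 152, 187 and 207 CPM (lowest, median and highest) in BPH_vehicle and 129, 166 and 194 CPM in BPN_vehicle. The log2 difference was 0.15 ± 0.09, with an interval from -0.03 to 0.33 (adjusted p = 0.256), so the Adcy5 and Adcy6 intervals overlap. Within batch 2 it was 0.42 (adjusted p = 0.172). The difference between the 2 genes was itself tested as a ratio, given further on.

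The promoter of Adcy5 is shown because the gene was called and sits at the step where cyclic AMP is made. RefSeq promoter windows, 250 bases before to 50 after a start site on the GRCm38.p6 build, were found for 5 of the 8 genes, 9 windows in all. Both strands were searched for the cyclic AMP response element TGACGTCA, its core TGACG and the GC box GGGCGG, where a full element also holds the core. Adcy5 lies at chr16:35154614-35154913 on the plus strand, and capitals mark motif matches.
Adcy5: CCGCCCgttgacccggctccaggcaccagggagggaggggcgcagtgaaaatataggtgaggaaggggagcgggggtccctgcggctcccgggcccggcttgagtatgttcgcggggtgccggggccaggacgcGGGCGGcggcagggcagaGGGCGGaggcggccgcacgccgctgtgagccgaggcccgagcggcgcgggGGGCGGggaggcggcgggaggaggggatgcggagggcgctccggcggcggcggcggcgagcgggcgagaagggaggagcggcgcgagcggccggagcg
This window held 4 GC boxes and no match to the response element or its core. Over all 32851 windows of this length, 35.7% held a GC box, 20.8% the core and 1.79% the full element. None of the 9 windows of the 8 genes held the full element.

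Gnas and Gnai2 encode the stimulatory and an inhibitory alpha subunit. Gnas had 456, 541 and 568 CPM (lowest, median and highest) in BPH_vehicle and 512, 604 and 742 CPM in BPN_vehicle. It was the only one of the 8 whose 95% interval lay below 0, at -0.19 ± 0.08 with an interval from -0.34 to -0.03, but it missed the threshold (adjusted p = 0.0863). It passed without BPN_vehicle replicate 3 (-0.23, adjusted p = 0.036) and in DESeq2's test (adjusted p = 0.0252), and was -0.13 without BPN_vehicle replicate 7, its highest library. Gnai2 had 154, 176 and 186 CPM in BPH_vehicle and 161, 173 and 226 CPM in BPN_vehicle. Its log2 difference was -0.05 ± 0.07 (adjusted p = 0.698), and 0.01 ± 0.06 without BPN_vehicle replicate 7, which again was the highest library. The Gnas locus holds overlapping sense and antisense transcripts, and how the counts treat strand is not stated, so its counts may include reads of its neighbours. Its antisense transcript Gnasas1 had no counts in any library.

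Maoa encodes monoamine oxidase A, a mitochondrial enzyme that oxidises noradrenaline and serotonin. It was a low-abundance gene, with 4.61, 6.11 and 7.29 CPM (lowest, median and highest) in BPH_vehicle and 3.31, 4.44 and 5.95 CPM in BPN_vehicle. It lay above every BPN_vehicle library in 5 of 7 BPH_vehicle libraries, by a margin under the printed rounding in 1 of them. The log2 difference was 0.47 ± 0.12, a ratio of 1.39, with an adjusted p of 0.0045. Here BPN_vehicle replicate 7 was the highest library of its group, and without it the difference was 0.55 ± 0.12 (adjusted p = 0.000554). Within batch 1 it was 0.55 (adjusted p = 0.00678) and within batch 2 it was 0.29 (adjusted p = 0.588). The call also held with the left-out library included (adjusted p = 0.0125) and in each of 25 fits that left out 1 library.

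The promoter of Maoa is shown as the other called gene with a RefSeq window, at chrX:16619448-16619747 on the plus strand of GRCm38.p6, with the same motifs in capitals.
Maoa: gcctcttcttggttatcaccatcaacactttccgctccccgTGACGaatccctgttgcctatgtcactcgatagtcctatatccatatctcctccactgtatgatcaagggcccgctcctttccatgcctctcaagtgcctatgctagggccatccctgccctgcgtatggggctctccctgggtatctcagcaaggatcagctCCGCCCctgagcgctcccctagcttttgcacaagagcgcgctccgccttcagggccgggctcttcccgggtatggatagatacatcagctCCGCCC
It held 2 GC boxes, 1 core of the cyclic AMP response element and no full element. The neighbouring paralog Maob, which prefers other amines, had 33.2, 52.1 and 57.6 CPM in BPH_vehicle and 28.4, 53.8 and 66.8 CPM in BPN_vehicle, with a log2 difference of -0.12 ± 0.14 (adjusted p = 0.64). Among mice on Cmpd17b the difference of Maob was -0.41 ± 0.16 (edgeR, adjusted p = 0.104). It was called there in 3 of 36 alternatives: without BPN_vehicle replicate 7 (-0.40, adjusted p = 0.0115), in limma voom (0.0211) and with 23 libraries (0.0254).

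**Figure D2:**
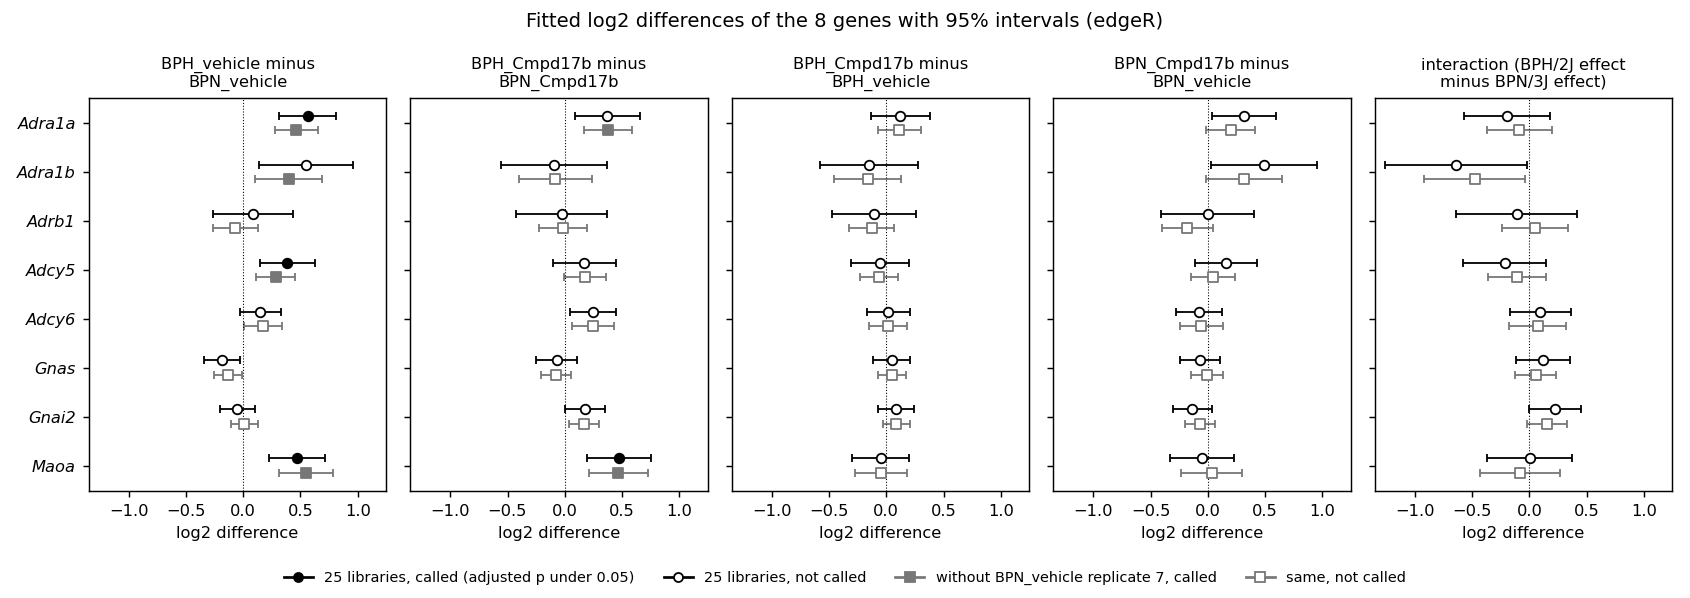
Fitted log2 differences of the 8 genes in 5 comparisons, with 95% intervals, for 25 libraries (black circles) and without BPN_vehicle replicate 7 (grey squares), filled where the adjusted p was under 0.05. Adra1a, Adcy5 and Maoa are filled in the strain difference under vehicle, and Adra1b joins them without BPN_vehicle replicate 7. Under Cmpd17b Maoa is filled in both fits and Adra1a without that library, and no symbol is filled in the 2 drug effects or their interaction.

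The same strain comparison was made among mice on Cmpd17b. Maoa was again higher in BPH/2J, and it was the only one of the 8 that passed, where 14.1% of all genes tested were called, 7.48% higher and 6.65% lower. None of the 8 had groups with no overlap here either, where 12.6% of all genes did. Maoa had 5.01, 5.88 and 7.5 CPM (lowest, median and highest) in BPH_Cmpd17b, against 3.87, 4.32, 4.32, 4.58 and 5.3 CPM in the BPN_Cmpd17b libraries. In 5 of 6 BPH_Cmpd17b libraries it lay above every BPN_Cmpd17b library. The log2 difference was 0.48 ± 0.14, a ratio of 1.39, with an adjusted p of 0.0157. The call ended without BPH_Cmpd17b replicate 4 (0.41, adjusted p = 0.0536) or without BPN_Cmpd17b replicate 5 (0.43, adjusted p = 0.0554).

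Adra1a had 50.6, 59.1 and 67.7 CPM (lowest, median and highest) in BPH_Cmpd17b, against 42.4, 42.5, 46.4, 47.0 and 51.3 CPM in the BPN_Cmpd17b libraries. Its groups overlapped by 1 library each, BPH_Cmpd17b replicate 6 and BPN_Cmpd17b replicate 5. The log2 difference of 0.37 ± 0.14 missed the threshold (adjusted p = 0.0742), but without BPN_vehicle replicate 7, which enters the shared estimate of spread, it was 0.38 ± 0.10 and passed (adjusted p = 0.00676). In a fit of the Cmpd17b libraries alone it was 0.41 (adjusted p = 0.000124). Of the 8 genes, 2 were called without that library, where 20.1% of all genes were called.

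The ratio of Adra1a to Adra1b, given further on, did not pass its test between the strains under the drug. Adra1b by itself also missed the threshold there. It had 19.4, 20.2, 21.3, 21.3, 31.9 and 33.8 CPM in the BPH_Cmpd17b libraries, against 23.5, 26.4, 27.3, 27.7 and 27.7 CPM in the BPN_Cmpd17b libraries. The BPH_Cmpd17b libraries fell on both sides of BPN_Cmpd17b, with 4 of 6 below all of them and replicates 1 and 2 above all of them. The log2 difference was -0.09 ± 0.23, with an interval from -0.56 to 0.37 (adjusted p = 0.854).

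The remaining genes gave no call among mice on Cmpd17b. Adrb1 had 13.2 to 18.9 CPM in BPH_Cmpd17b and 14.3 to 18.9 CPM in BPN_Cmpd17b, with a log2 difference of -0.03 ± 0.19 (adjusted p = 0.957). Adcy5 had 63.3 to 102 CPM in BPH_Cmpd17b and 61.8 to 90.3 CPM in BPN_Cmpd17b, with a log2 difference of 0.17 ± 0.13 (adjusted p = 0.488). Adcy6, the more abundant cyclase, came closer, at 175 to 199 CPM in BPH_Cmpd17b and 143 to 195 CPM in BPN_Cmpd17b. Its log2 difference was 0.25 ± 0.10 (adjusted p = 0.106), and it passed without BPN_Cmpd17b replicate 2 (0.32, adjusted p = 0.0374), in limma voom (0.018) and in a fit of the Cmpd17b libraries alone (0.0284). Gnas had 527 to 563 CPM in BPH_Cmpd17b and 532 to 622 CPM in BPN_Cmpd17b, with a log2 difference of -0.07 ± 0.09 (adjusted p = 0.683). Gnai2 had 175 to 198 CPM in BPH_Cmpd17b and 154 to 179 CPM in BPN_Cmpd17b, with a log2 difference of 0.17 ± 0.08 (adjusted p = 0.2).

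Cmpd17b was then set against vehicle within each strain. None of the 8 genes passed in BPH/2J, none passed in BPN/3J, and 0% of all genes tested were called in either strain by edgeR. At an unadjusted p under 0.05 there were 0 of the 8 in BPH/2J and 2 of the 8 in BPN/3J, against 287 and 1506 of all genes tested. Without BPN_vehicle replicate 7 these counts over all genes were 503 (3.25%) in BPH/2J and 882 (5.69%) in BPN/3J. DESeq2 and limma voom also called none of the 8, and over all genes DESeq2 called 1, in BPN/3J. None of the 8 had groups without overlap, beside 0.0772% of all genes in BPH/2J and 0.341% in BPN/3J. In BPH/2J the log2 differences (BPH_Cmpd17b minus BPH_vehicle) ran from -0.15 ± 0.21 for Adra1b to 0.12 ± 0.13 for Adra1a. The widest interval was that of Adra1b, from -0.58 to 0.27, and the narrowest those of Gnai2, from -0.07 to 0.25, and Gnas, from -0.12 to 0.21. Adrb1 stood at -0.11 ± 0.18, Adcy5 at -0.05 ± 0.12, Adcy6 at 0.02 ± 0.09 and Maoa at -0.05 ± 0.12. A change as large as the strain difference of Adra1a lay outside the interval of each gene but Adra1b, where a fall of that size lay just inside.

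In BPN/3J the 2 alpha-1 receptors were those with an unadjusted p under 0.05. Adra1a had 42.4 to 51.3 CPM in BPN_Cmpd17b and 21.5 to 47.4 CPM in BPN_vehicle, a log2 difference of 0.31 ± 0.14 (edgeR, adjusted p = 0.514). Adra1b had 23.5 to 27.7 CPM in BPN_Cmpd17b and 6.45 to 26.4 CPM in BPN_vehicle, a log2 difference of 0.49 ± 0.22 (edgeR, adjusted p = 0.514). Neither survived adjustment, and without BPN_vehicle replicate 7 the differences were 0.20 ± 0.11 and 0.31 ± 0.16 (adjusted p = 0.849 for both). The other 6 genes had log2 differences between -0.14 ± 0.08 for Gnai2 and 0.16 ± 0.13 for Adcy5. These BPN/3J effects share the BPN_vehicle libraries with the strain difference under vehicle.

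The difference between the strains in their response to Cmpd17b was tested as an interaction, the BPH/2J effect minus the BPN/3J effect. No gene passed, among the 8 or over all genes tested (0% called by edgeR, DESeq2 and limma voom), while 1 of the 8 and 595 of all genes had an unadjusted p under 0.05. The 1 was Adra1b, at -0.64 ± 0.30 (edgeR, adjusted p = 0.917), and at -0.48 ± 0.21 (adjusted p = 1) without BPN_vehicle replicate 7. Gnai2 followed at 0.22 ± 0.11 (edgeR, adjusted p = 0.917). Maoa, called in both strain comparisons, had an interaction of 0.0028 ± 0.18, with an interval from -0.37 to 0.37.

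Ratios of functionally paired genes within a library were compared as well, since a ratio does not depend on how libraries are scaled to each other. Of 12 exact two-sided permutation tests (3 ratios, 4 comparisons), none had an adjusted p under 0.05 when batch was ignored. The closest was the log2 ratio of Gnas to Gnai2, which averaged 1.555 ± 0.082 in BPH_Cmpd17b and 1.798 ± 0.062 in BPN_Cmpd17b (SD, n = 6 and 5). Every BPN_Cmpd17b library lay above every BPH_Cmpd17b library, and the difference was -0.24 (exact permutation p = 0.00433, adjusted p = 0.0519), where the smallest p this design allows is 0.00216. Permuting within batches changed the call, with an exact permutation adjusted p of 0.0476. However, BPH_Cmpd17b replicate 6, the only batch 2 library, then stays in its group, and the p was the smallest this permutation allows. In batch 1 alone the difference was -0.22 and did not pass (exact permutation p = 0.00794, adjusted p = 0.0952), where the smallest p possible is also 0.00794. Under vehicle the same ratio averaged 1.592 ± 0.097 in BPH_vehicle and 1.73 ± 0.125 in BPN_vehicle, a difference of -0.14 (exact permutation p = 0.0449, adjusted p = 0.18). The ratio of Gnas to Gnai2 counts was on average lower in BPH/2J under both treatments, where Gnas counts may include reads of its neighbours.

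The log2 ratio of Adra1a to Adra1b averaged 1.301 ± 0.383 in BPH_Cmpd17b and 0.791 ± 0.108 in BPN_Cmpd17b, and 5 of 6 BPH_Cmpd17b libraries lay above every BPN_Cmpd17b library. The difference was 0.51 (exact permutation p = 0.026, adjusted p = 0.156). Under vehicle the ratio averaged 1.009 ± 0.209 in BPH_vehicle and 1.066 ± 0.34 in BPN_vehicle, a difference of -0.06 (exact permutation p = 0.733), which turned to 0.05 without BPN_vehicle replicate 7. The log2 ratio of Adcy5 to Adcy6 averaged -1.095 ± 0.253 in BPH_vehicle and -1.365 ± 0.387 in BPN_vehicle. Its difference was 0.27 (exact permutation p = 0.135, adjusted p = 0.231), so Adcy5 was not shown to differ from Adcy6 in its strain difference. Without BPN_vehicle replicate 7 that difference was 0.12.

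**Figure D3:**
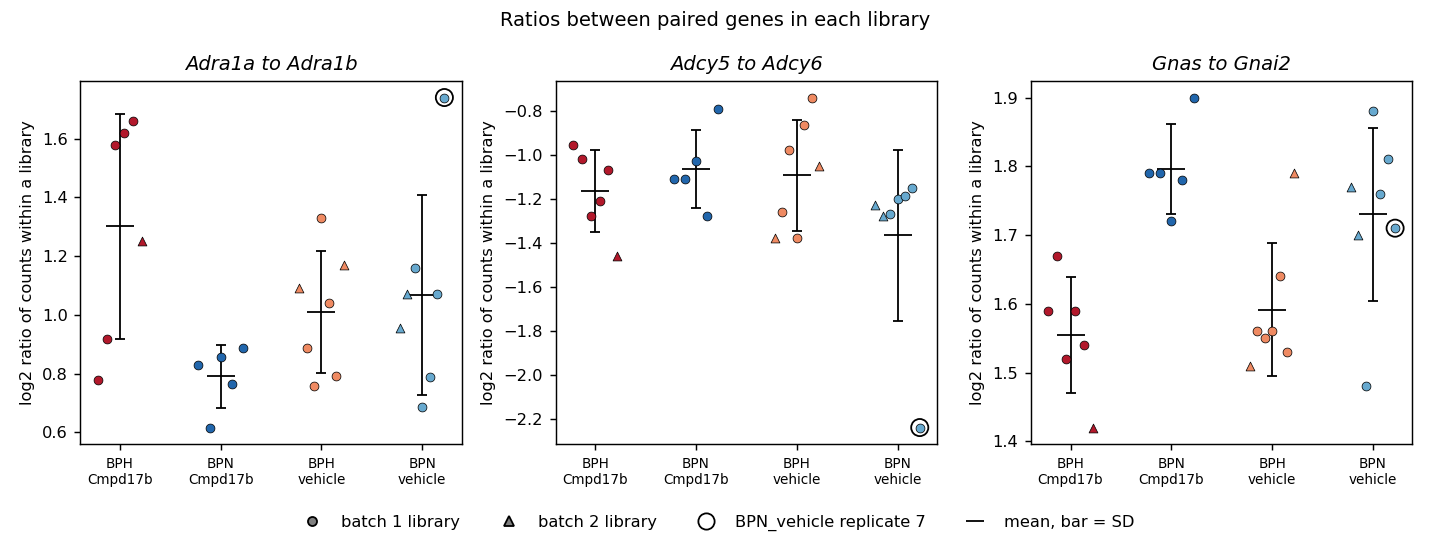
Log2 ratio of counts within each library for Adra1a to Adra1b, Adcy5 to Adcy6 and Gnas to Gnai2, by strain and treatment, with lines and bars for the mean and SD. The Gnas to Gnai2 ratios of the 5 BPN_Cmpd17b libraries, 1.723 to 1.896, all lie above those of the 6 BPH_Cmpd17b libraries, 1.424 to 1.666, and the circled library, BPN_vehicle replicate 7, lies far below the others in the ratio of Adcy5 to Adcy6.

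For each gene called under vehicle, the tested genes with the nearest profile over the 25 libraries were found by the mean absolute difference in centred log2 CPM. Nearest to Adra1a were Zfp106 at 0.0997, Gid4 at 0.113 and Mfap1a at 0.118, where the median distance of all genes was 0.348. Nearest to Adcy5 were the cardiac potassium channel genes Kcnk3 at 0.0954 and Kcnh2 at 0.112, and the kinase gene Akt2 at 0.112, with a median of 0.306. Nearest to Maoa were Rasgrp3 at 0.137, Flywch1 at 0.153 and Thumpd1 at 0.157, with a median of 0.344. These libraries differ in batch and in marker levels, whose part in the distances was not tested, so nearness in this measure is a description only.

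Around the 8 genes, 12 lists of other adrenergic pathway genes held 140 genes, of which 135 were tested. Under vehicle, 31 of the 135 (23%) were called between the strains, 13 higher and 18 lower in BPH_vehicle, beside 18.9% of all genes. Under Cmpd17b it was 22 of 135 (16.3%), 11 higher and 11 lower in BPH_Cmpd17b, beside 14.1% of all genes. Without BPN_vehicle replicate 7 the counts were 44 under vehicle (32.6%, 23 higher and 21 lower), beside 24.2% of all genes, and 37 under Cmpd17b (27.4%, 18 higher and 19 lower), beside 20.1%. Without the 3 libraries with hepatocyte markers they were 25 (18.5%, beside 15.1%) and 23 (17%, beside 13.3%). The naming rule selected 24 called genes under vehicle, from a fit that already held the batch 2 libraries. Their calls within batch 2 are therefore no independent check. Of the 24, 12 were also called within batch 2, with 2 libraries a group, and 12 were not. Over all genes tested, 7.88% were called within batch 2. Differences nearer 0 by over 1.5 times there were those of Rgs6 (-0.23, adjusted p = 0.555), Rgs12 (-0.12, 0.728), Pde10a (-0.36, 0.713), Prkce (0.13, 0.667), Rapgef3 (-0.03, 0.945), Itpr1 (-0.08, 0.838) and Itpr2 (-0.15, 0.768). The median log2 difference over the 135 genes was 0.0278 under vehicle and 0.00993 under Cmpd17b. No gene of these lists was called for an effect of Cmpd17b in either strain or for the interaction. At an unadjusted p under 0.05 there were 0 of the 135 in BPH/2J, 6 in BPN/3J and 3 for the interaction. Beside these stood 287, 1506 and 595 of all 15543 genes tested. DESeq2 called none of the 135.

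Upstream, none of the 4 other adrenergic receptors tested was called by edgeR in either strain comparison. Of 7 other adenylyl cyclases tested, 1 was called under vehicle, higher: Adcy8, at 1.03 ± 0.28 CPM in BPH_vehicle and 0.556 ± 0.27 CPM in BPN_vehicle, a low level, named after its values were seen. Of 7 receptor kinases and arrestins, which switch receptors off after activation, 2 (28.6%) were called under each treatment, in opposite directions. Of all genes, 18.9% were called under vehicle and 14.1% under Cmpd17b. Grk3 averaged 26.7 ± 2.43 CPM in BPH_vehicle and 17.6 ± 2.01 CPM in BPN_vehicle, with no overlap (6.36% of all genes tested), a log2 difference of 0.60 ± 0.08 (adjusted p = 1.26e-06). Grk5, the receptor kinase abundant in heart, averaged 37.7 ± 5.76 CPM in BPH_vehicle and 52.2 ± 11.7 CPM in BPN_vehicle, a log2 difference of -0.46 ± 0.10 (adjusted p = 0.0011). On Cmpd17b the 2 kinases gave 0.55 ± 0.09 and -0.66 ± 0.12, and neither pair of groups overlapped, as in 12.6% of all genes tested.

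Of 22 other G protein subunits, 5 were called under vehicle, 3 higher and 2 lower, and 3 of 22 under Cmpd17b, 2 higher and 1 lower. These shares, 22.7% and 13.6%, lay near the 18.9% and 14.1% of all genes called. Gnai1, an inhibitory alpha subunit beside Gnai2, averaged 4.95 ± 0.94 CPM in BPH_vehicle and 2.32 ± 0.71 CPM in BPN_vehicle, a log2 difference of 1.10 ± 0.13 (adjusted p = 2.16e-07). On Cmpd17b it averaged 4.18 ± 0.47 CPM in BPH_Cmpd17b and 2.67 ± 0.32 CPM in BPN_Cmpd17b, with no overlap and a log2 difference of 0.57 ± 0.15 (adjusted p = 0.00752). Its interaction, -0.53 ± 0.20, did not pass (adjusted p = 0.917). Gnao1, a further alpha subunit of the inhibitory family, was higher under vehicle by 0.58 ± 0.16 (adjusted p = 0.00796), by 0.36 (adjusted p = 0.0517) within batch 1, and by 0.31 (adjusted p = 0.15) without the 3 libraries with hepatocyte markers. The gamma subunit Gng10 was higher by 0.77 ± 0.09 (adjusted p = 1.87e-07), although only 2 of 7 BPH_vehicle libraries lay above every BPN_vehicle library before the batch term. Gng7 was lower, at -1.08 ± 0.24 (adjusted p = 0.00145), and at -0.83 (adjusted p = 0.0523) without those 3 libraries. Gng11, which the naming rule did not select, was the other lower one, at -0.50 ± 0.16 (adjusted p = 0.0249).

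RGS proteins shorten G protein signals, and 4 of 10 (40%) were called under each treatment, beside 18.9% of all genes under vehicle and 14.1% under Cmpd17b. Rgs2, which acts on Gq proteins and is known for its role in blood pressure, averaged 18.5 ± 4.07 CPM in BPH_vehicle and 7.97 ± 2.14 CPM in BPN_vehicle, with no overlap between the groups. Its log2 difference was 1.21 ± 0.15 (adjusted p = 8.17e-07) under vehicle and 1.02 ± 0.18 (adjusted p = 0.000102) under Cmpd17b. The other 3 called under vehicle were lower in BPH_vehicle: Rgs6 at -0.55 ± 0.13 (adjusted p = 0.00299), Rgs4 at -0.40 ± 0.09 (adjusted p = 0.00163) and Rgs12 at -0.29 ± 0.07 (adjusted p = 0.00367). Under Cmpd17b, Rgs3 was higher by 0.62 ± 0.12 (adjusted p = 0.000487), while Rgs4 and Rgs6 were lower at -0.55 ± 0.10 and -0.64 ± 0.15.

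Phosphodiesterases break down cyclic AMP and cyclic GMP. Of 16 tested, 7 were called under vehicle, 2 higher and 5 lower in BPH_vehicle, and 6 under Cmpd17b, 2 higher and 4 lower. These shares were 43.8% and 37.5%, beside 18.9% and 14.1% of all genes. Pde7a, specific for cyclic AMP, averaged 39.8 ± 6.63 CPM in BPH_vehicle and 24.5 ± 2.53 CPM in BPN_vehicle, with no overlap and a log2 difference of 0.70 ± 0.10 (adjusted p = 4.05e-06). Pde11a averaged 1.46 ± 0.39 CPM in BPH_vehicle and 3.34 ± 0.55 CPM in BPN_vehicle, again with no overlap and a log2 difference of -1.20 ± 0.18 (adjusted p = 8.25e-06). Pde8b was lower at -0.62 ± 0.14 (adjusted p = 0.00134) and Pde10a at -0.69 ± 0.18 (adjusted p = 0.00612). Pde4a, a cyclic AMP phosphodiesterase, was lower under vehicle as well, at -0.60 (adjusted p = 1.6e-06). Among mice on Cmpd17b it averaged 41.9 ± 7.13 CPM in BPH_Cmpd17b and 70.1 ± 9.03 CPM in BPN_Cmpd17b, with no overlap and a log2 difference of -0.68 ± 0.09 (adjusted p = 1.98e-06). Pde7a, Pde8b and Pde11a gave 0.75 ± 0.11, -0.72 ± 0.16 and -1.16 ± 0.20 in that comparison.

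Further down, 2 of 11 genes of protein kinase A and Epac were called under vehicle (18.2%, beside 18.9% of all genes). Pkig, an inhibitor of protein kinase A, averaged 127 ± 14 CPM in BPH_vehicle and 70.2 ± 8.81 CPM in BPN_vehicle, with every BPH_vehicle library above every BPN_vehicle library. Its log2 difference was 0.85 ± 0.09 (adjusted p = 1.47e-08) under vehicle and 0.84 ± 0.10 (adjusted p = 2.79e-07) under Cmpd17b. Rapgef3, which encodes Epac1, was lower at -0.59 ± 0.16 (adjusted p = 0.0116). That value was -0.33 (adjusted p = 0.00463) without BPN_vehicle replicate 7, the library with the high endothelial markers, where Rapgef3 stood at 67.3 CPM. Its call ended in a fit of the vehicle libraries alone (adjusted p = 0.0518), and within batch 2 the difference was near 0, at -0.03 (adjusted p = 0.945). Of 10 A-kinase anchoring proteins, Akap9 was called, at 42.6 ± 4.99 CPM in BPH_vehicle and 29.2 ± 5.11 CPM in BPN_vehicle, a log2 difference of 0.54 ± 0.10 (adjusted p = 0.000124). Of 14 protein kinase A substrates, 2 were called under vehicle (14.3%, beside 18.9% of all genes). Kcne1, a potassium channel subunit, was higher by 0.92 ± 0.16 (adjusted p = 8.89e-05). Fxyd1, phospholemman, was lower at -0.25 ± 0.08 (adjusted p = 0.0356), a call that ended, with adjusted p from 0.0509 to 0.0885, without any 1 of BPH_vehicle replicates 1, 4, 5 and 6 or BPN_vehicle replicates 1, 2 and 3, and also without the batch term (0.0641) and in limma voom (0.109).

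Of 12 effectors of alpha-1 receptors, 4 were called under vehicle (33.3%, beside 18.9% of all genes), 2 in each direction. The protein kinase C genes Prkcd and Prkce were higher by 0.34 ± 0.11 (adjusted p = 0.0241) and 0.25 ± 0.08 (adjusted p = 0.0203), and the calcium release channel genes Itpr1 and Itpr2 were lower at -0.34 ± 0.11 (adjusted p = 0.027) and -0.56 ± 0.11 (adjusted p = 0.000488). Itpr1 was at -0.19 (adjusted p = 0.0444) without BPN_vehicle replicate 7, and its call ended without BPH_vehicle replicate 2 (adjusted p = 0.0637), 5 (0.05) or 7 (0.054). The call of Prkcd ended, with adjusted p from 0.0503 to 0.0639, without any 1 of BPH_vehicle replicates 4 and 7 or BPN_vehicle replicates 1, 4, 5 and 6. Without the 3 libraries with hepatocyte markers Prkcd was at 0.24 (adjusted p = 0.24). The call of Prkce ended without BPH_vehicle replicate 6 (adjusted p = 0.0522) or BPN_vehicle replicate 3 (adjusted p = 0.0501). Under Cmpd17b, 1 of 12 was called (8.33%, beside 14.1% of all genes), Prkcd. It averaged 14.7 ± 1.73 CPM in BPH_Cmpd17b and 10.4 ± 1.07 CPM in BPN_Cmpd17b, a log2 difference of 0.52 ± 0.12 (adjusted p = 0.00396).

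Maoa belongs with the genes that make, carry and break down catecholamines, of which 11 others were tested. Under either treatment 3 of the 11 (27.3%) were called, all lower in BPH/2J, against the direction of Maoa. Of all genes, 18.9% were called under vehicle and 14.1% under Cmpd17b. Slc22a3, the extraneuronal monoamine transporter that carries noradrenaline into heart cells, averaged 6.79 ± 1.12 CPM in BPH_vehicle and 11.5 ± 2.44 CPM in BPN_vehicle, a log2 difference of -0.77 ± 0.14 (adjusted p = 0.000181). On Cmpd17b it averaged 6.03 ± 1.48 CPM in BPH_Cmpd17b and 14.4 ± 1.29 CPM in BPN_Cmpd17b, with no overlap and a log2 difference of -1.23 ± 0.16 (adjusted p = 1.52e-06). Another of them, named after its values were seen, was aromatic amino acid decarboxylase, Ddc, under vehicle at -1.93 ± 0.25 (adjusted p = 1.03e-06). Ddc averaged 0.837 ± 0.558 CPM in BPH_vehicle and 2.98 ± 1 CPM in BPN_vehicle. None of the 11 tested genes of cyclic AMP-responsive transcription was called in either strain comparison, while 1 of the 11 had an unadjusted p under 0.05 in each. Of all 15543 genes tested, 4733 had such a p under vehicle and 3895 under Cmpd17b.

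**Figure D4:**
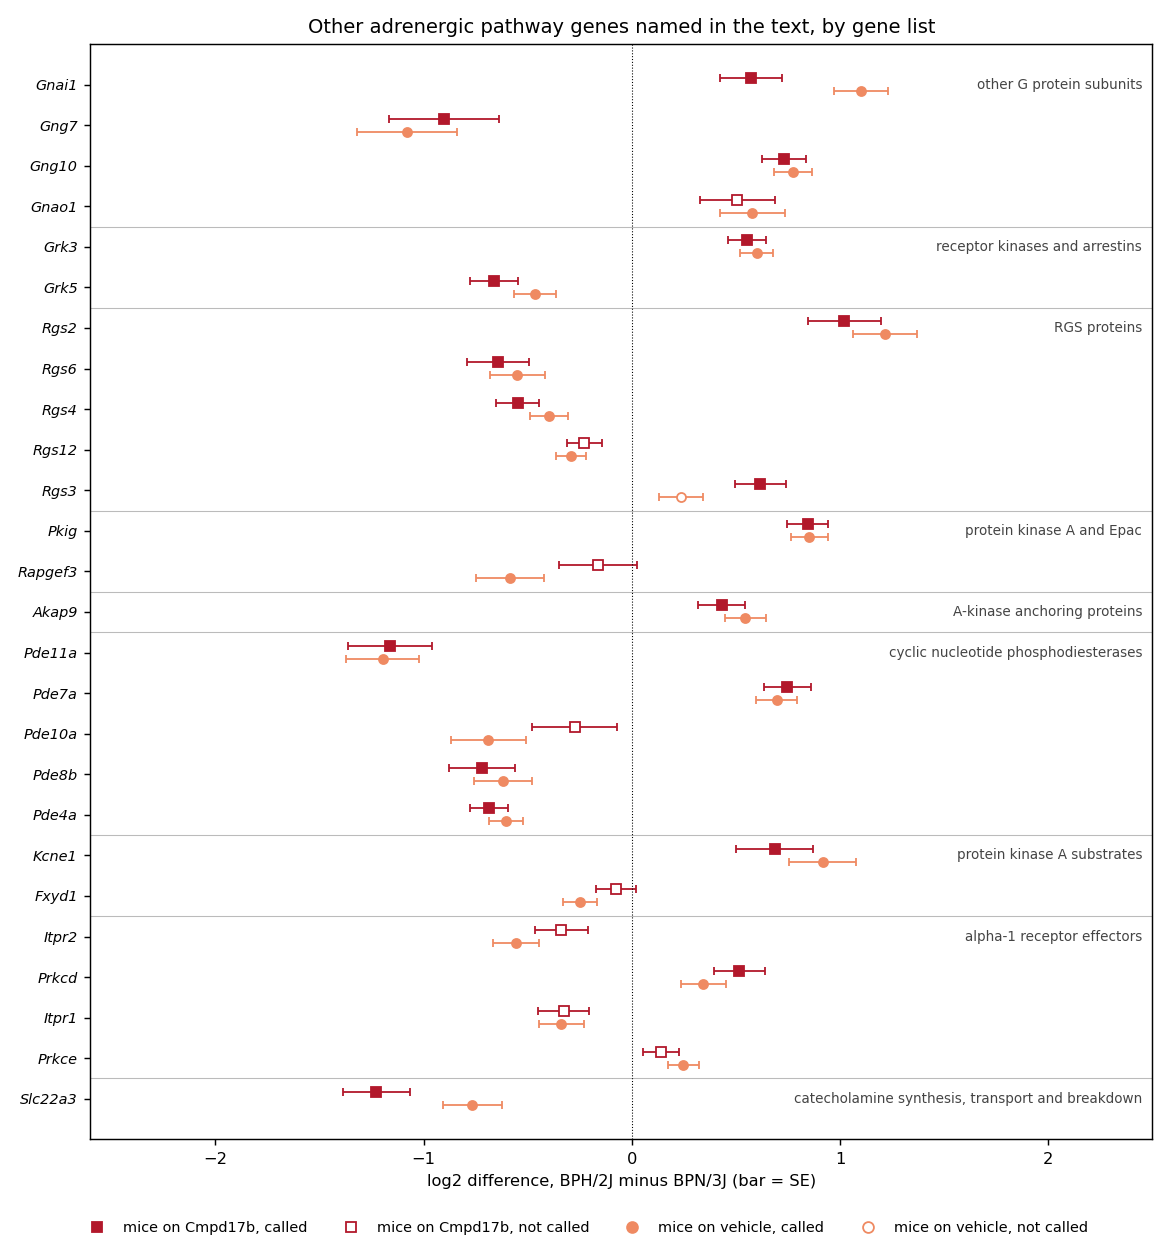
Log2 difference of BPH/2J minus BPN/3J with its SE for the pathway genes selected by the naming rule, grouped by list, with squares for mice on Cmpd17b above circles for mice on vehicle, filled where the adjusted p was under 0.05. Grk3, Rgs2, Pkig, Pde7a and Gnai1 lie to the right of 0 and Grk5, Rgs4, Pde11a, Pde8b and Slc22a3 to the left under both treatments.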

How the data were processed

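Left ventricle RNA was sequenced in 26 libraries, whose group and batch come from the labels. Per the labels' protocols, a VAHTS Universal V8 kit and paired-end NovaSeq6000 sequencing were used. The submitters' processing notes name Trim Galore 0.6.7, STAR 2.7.9a and the GRCm39 build. How genes were counted, on which strand and with which annotation was not given in the sources used here. The deposited values are expected counts for 40413 genes, of which 96.1% were whole within 0.001, and these were rounded. Replicates are numbered in sample order, so the numbers pair nothing.

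The 8 genes, the pathway lists, the marker lists and the tests were chosen with earlier results of these data known. The fit used 25 libraries, without the one labelled BPH_Cmpd17b replicate 7, which has a kidney profile. After filterByExpr (15543 genes kept) and TMM scaling, robust quasi-likelihood fits in edgeR 4.0.16 under R 4.3.3 had 1 coefficient per group and a batch term. BPN_Cmpd17b has batch 1 only, so its batch effect is taken from the other groups. Benjamini-Hochberg adjustment ran over the whole table, and a gene with an adjusted p under 0.05 is called. CPM are TMM-scaled, the SE is derived from the F statistic, and intervals are at 95%. Ratios had a pseudocount of 0.5 and were tested by exact two-sided permutation, adjusted over 12 tests. Levels per kb used exon lengths of a GRCm38 annotation. Named pathway genes are up to 4 called per list and comparison with the largest change and a mean log2 CPM of at least 1, plus Adrb3 and Maob, and 3 nearest profiles are named per called gene of the 8. Some pathway genes are counted in their lists but not reported here by name.

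Alternatives were all 26 libraries, 23 libraries (also without BPH_Cmpd17b replicate 6 and BPN_vehicle replicate 7), 22 libraries (without BPN_vehicle replicates 1, 2 and 4, added after seeing the data), RLE factors, DESeq2 1.42.0, voom with quality weights in limma 3.58.1, other filters (none, or at least 1 CPM in 7 libraries), a fit without batch, single batches, the compared groups alone, leaving out each library, and for ratios a pseudocount of 1 and permutation within batches. The edgeR fit was tested on simulated data.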

Additional observations from a re-analysis of the deposited data

Results flagged for a closer look

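Values of the 8 genes in each of 4 groups, 32 sets in all, and of the 3 ratios, 12 sets, were checked for a library far from the rest of its group. Chance alone gives about 1 such library in 20 sets. The 4 found were 3 gene levels and 1 ratio, and 3 of them fall in BPN_vehicle replicate 7. Adrb1 stood at 5.76 CPM in that library, against a mean of 19.9 ± 3.37 CPM (SD, n = 6) in the others of its group. Gnai2 stood at 226 CPM there, against 161 to 187 CPM. The log2 ratio of Adcy5 to Adcy6 was -2.24 there, the lowest of all 25 libraries. In the same library all 5 endothelial markers were the highest of 25, summing to 1180 CPM, while the cardiomyocyte markers summed to 50900 CPM, within the range of the others. The part of these cells in the 3 values was not tested.

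Adrb1 also stood at 25.5 CPM in BPH_vehicle replicate 7, against 16.1 to 19.4 CPM in the other 6 of its group. This library held 68.8 CPM of Myl7, and its 4 atrial markers summed to 1100 CPM, against 329 to 799 CPM in the rest of its group and up to 2550 CPM over all groups. Their part in the value was not tested. Without this library the strain difference of Adrb1 under vehicle was 0.04 ± 0.18 on the log2 scale (edgeR, adjusted p = 0.918).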

How the results depend on the processing

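No result changed direction past a threshold under any alternative run. Under vehicle, the strain difference called 2936 genes, against 1492 with all 26 libraries (9.59% of all genes) and 1168 in batch 2 alone (7.88%). It called 3 of the 8 members, against 1 with all 26 libraries, 5 with DESeq2 (4 higher, 1 lower, beside 21.1% of all genes) and 0 in batch 2 alone. Under Cmpd17b it called 2197 genes, against 1195 with all 26 libraries and 3405 with limma voom, and 1 member, against 2 with 23 libraries (19.1% of all genes), 3 with limma voom (21.9%), 3 with only the groups compared (19.9%) and 0 to 2 when leaving out 1 library. The 22 libraries without BPN_vehicle replicates 1, 2 and 4, chosen after seeing the data, gave 3 members under vehicle and 1 under Cmpd17b. In BPN/3J, DESeq2 called 1 gene for Cmpd17b, where edgeR called 0. For the log2 ratios, Adra1a to Adra1b under vehicle gave 0.05394 with 23 libraries and -0.121 to 0.05394 when leaving out 1 library, and under Cmpd17b 0.4375 to 0.6149 when leaving out 1. Gnas to Gnai2 under vehicle gave -0.1793 to -0.1129 when leaving out 1. Under Cmpd17b it gave -0.2348 with all 26 libraries (exact permutation, adjusted p = 0.0152), -0.2429 with permutation within batches (adjusted p = 0.0476) and -0.2651 to -0.2167 when leaving out 1. The value with all 26 includes the library with a kidney profile, so it does not describe the ventricle alone. Within batches, BPH_Cmpd17b replicate 6 stays in its group and the p was the smallest possible. In batch 1 alone it gave -0.2167 (exact permutation, adjusted p = 0.0952). The same ratio's Cmpd17b effect in BPH/2J was 0.0122 in batch 1 alone. The fits of 1 batch hold 2 to 5 libraries a group, and batch 2 has no BPN_Cmpd17b library, so it gives the strain difference under vehicle only. The causes of the other changes were not tested. Adra2a, Adrb3, Adcy10, Slc6a2 and Th had too few counts to pass the filter, and differences in them were not detectable at this depth. No paired analysis was possible because the labels give no replicate numbers.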
